A study of Bos taurus with 12 samples.

Results

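The cytosolic ribosomal protein genes encode the proteins of the ribosome that works in the cytoplasm, and their mRNAs were followed here across both uterine horns and 2 seasons in cattle. Members were all probes whose gene name or description named a ribosomal protein of the large (RPL, RPLP) or small (RPS, RPSA) subunit, leaving out mitochondrial ribosomal proteins and ribosomal protein kinases. The rule took 79 of the 15208 non-control probes, which stood for 72 genes. Of these, 63 were named by their symbol and 9 by the name the array files give them (for example MGC128327, described as similar to ribosomal protein L36a). Where a gene had several probes, its brightest one by the 12-array mean was used. The rule used names and no measured values.

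The cytosolic ribosome has a large and a small subunit, each built from ribosomal RNA and a full set of ribosomal proteins, most of which are present in 1 copy per ribosome. The small subunit decodes the mRNA and the large one joins amino acids. Cells make the proteins in matched amounts, and most of their mRNAs start with a tract of pyrimidines, the 5′ TOP motif, through which mTOR sets how strongly they are translated. In the endometrium, the lining of the uterus, output of secreted protein rises under progesterone from the corpus luteum, the ovarian body left after ovulation.

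The tissue was endometrium of Japanese-Black cows taken by biopsy on day 15 of the estrous cycle, early in September (summer) or in mid-November (autumn) of 2 consecutive years. The labels do not say in which year a given sample was taken, so season and year cannot be separated for single arrays. In each season a piece came from the horn next to the ovary with the corpus luteum (CL side) and from the horn opposite (non-CL side), which gave CL-side summer, non-CL-side summer, CL-side autumn and non-CL-side autumn, with 3 arrays in each of the 4 groups. RNA (400 ng per sample) was labelled with the dye Cy3 and put on 1-colour arrays with probes of 60 bases. The labels name no treatment or allele, and all groups share breed and cycle day. Whether the 3 samples in a group are 3 animals is not stated in the labels, and the tests therefore measure the spread between these samples, which may be technical.

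A value is the log2 of a spot's signal over its array's 75th percentile, so that 0 lies at that percentile and a difference of 1 is a doubling. The 75th percentile itself was lowest, at 2007, for CL-side summer replicate 2 and between 3516 and 4418 for the rest. That array correlated with the others at a median of 0.928, against 0.972 or more for any other pair of arrays. Slide 1 held all 6 summer arrays and the autumn arrays numbered 1, and slide 2 held the autumn arrays numbered 2 and 3. Apart from PAEP, all epithelial, stromal and smooth muscle markers fixed for checking the tissue were well above background on 10 or more arrays. PAEP, a secreted endometrial protein, was well above background on 4. Of the red blood cell markers, HBG, ALAS2 and AHSP were well above background on 12 arrays. HBB and SLC4A1 were so on 1 array each, and the haemoglobin gene HBA on no array.

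Of the 72 member genes, 71 passed the filter for signal (44 of the large and 27 of the small subunit), and each of these was well above background on all 12 arrays. The remaining gene, MGC128832 (described as similar to S20), was well above background on 5 arrays, 2 of CL-side summer and 1 of each other group, and was left out. Outlier flags left CB168716, whose gene name in the array files reads as similar to L35a, with 8 measured arrays and RPS29 with 11. RPS14 was saturated on 2 arrays. Of the 71 genes, 61 had a mean signal above the 75th percentile, compared with 30.4% of all kept probes, and the other 10 lay below it.

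Some member probes read the same letters as another probe, which bears on which gene a value belongs to. The probe filed as RPL30-similar has the sequence of the RPL24 probe over all 60 bases, marked by capitals here, and was counted under RPL24.
RPL24 probe: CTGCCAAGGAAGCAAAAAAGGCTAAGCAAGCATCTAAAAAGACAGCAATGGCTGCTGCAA
probe filed as RPL30: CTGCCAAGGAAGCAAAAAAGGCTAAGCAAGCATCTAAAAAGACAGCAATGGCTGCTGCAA
Over the 12 arrays these 2 spots differed by 0.08 ± 0.12 (SD, n = 12) on the log2 scale and correlated at r = 0.91, so the spread between spots of 1 sequence was about 0.12. The RPS13 and RPL7 probes likewise share all 60 bases with probes for unnamed transcripts, with SDs of the difference of 0.10 and 0.05. The 2 RPS10 probes share their first 57 bases and differ at positions 58 and 59 from the 5′ end, and their difference had an SD of 0.06. The second RPS15A probe has the same 60 bases as the probe for PRXL2C, a peroxiredoxin-like gene, and correlated at r = 0.995 with it but at −0.14 with the other RPS15A probe. That other probe, printed below in lower case, is the brighter one and stood for RPS15A.
RPS15A probe used: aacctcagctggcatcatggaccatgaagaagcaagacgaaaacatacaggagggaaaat

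Across the arrays the ribosomal protein mRNAs varied together, and 1 library, CL-side summer replicate 2, stood highest. The array score, the mean over the 71 genes of the log2 difference from each gene's own 12-array mean, was −0.12, 0.52 and −0.11 in CL-side summer replicates 1, 2 and 3. It was −0.13, −0.14 and −0.09 in non-CL-side summer, −0.09, 0.28 and 0.06 in CL-side autumn and −0.10, 0.04 and −0.12 in non-CL-side autumn. The CL-side arrays numbered 2 were therefore the highest of their groups in both seasons, and the scores of the horns overlapped in both seasons. Of the 69 genes measured on every array, 53 had their highest value on CL-side summer replicate 2 and 9 on CL-side autumn replicate 2, whereas 30.3% and 10.9% of all probes did. None of the 69 had its lowest value on either of these arrays, compared with 27.7% and 12.5% of all probes. In tissue pieces like these, fewer cells of a type and less RNA per cell cannot be told apart.

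**Figure D1:**
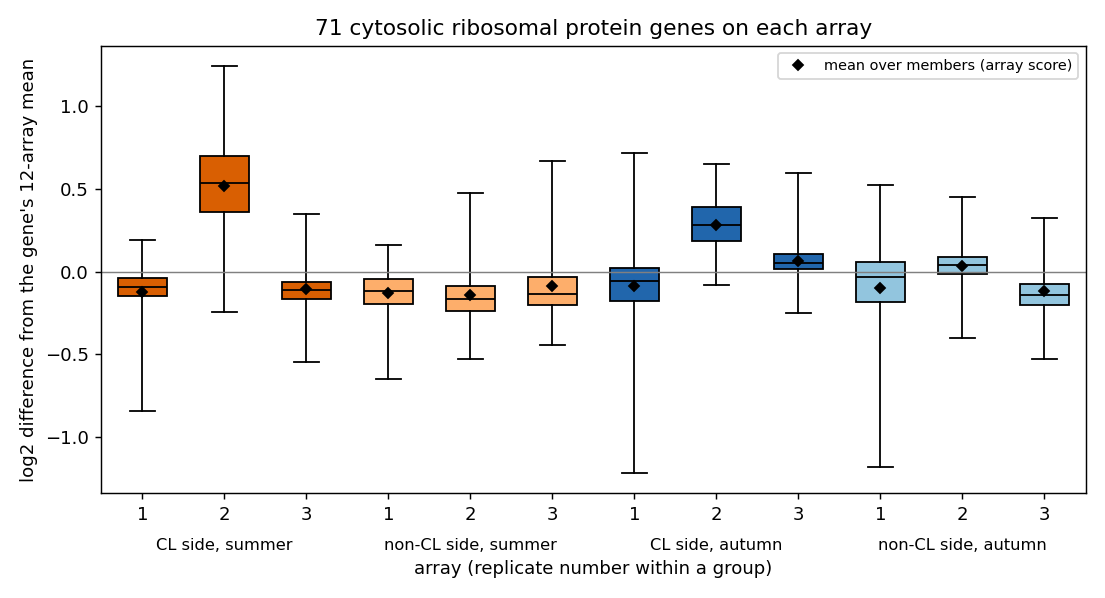
Log2 difference of the 71 ribosomal protein genes from their own 12-array means (vertical axis) on each of the 12 arrays (horizontal axis, replicate numbers by group). Boxes span the quartiles with the median as a line, whiskers reach the lowest and highest gene, and diamonds are the array scores. CL-side summer replicate 2 stands at a score of 0.52 and CL-side autumn replicate 2 at 0.28, whereas all other arrays lie between −0.14 and 0.06.

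How far CL-side summer replicate 2 stood out depended on the scaling of the arrays. Its score was 0.50 with normexp background correction, 0.51 with scaling to the median, 0.52 in the authors' deposited log2 values and 0.35 after cyclic loess, which removes differences that follow brightness. After quantile normalization, which gives every array the same distribution, its score was 0.06, below that of CL-side autumn replicate 2 at 0.16. This array is also the one with the lowest 75th percentile, and the part of its lower signal in its score was not tested beyond these settings.

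Genes tracked each other closely. The correlation of a gene with the mean of the other members over the 12 arrays had a median of 0.87 and was above 0.8 for 44 of the 71 genes. The mean correlation over all 2485 pairs of members was 0.60, and it was 0.48 without CL-side summer replicate 2 and 0.28 without both CL-side replicates 2, beside 0.01 for pairs of all probes in each case. A correlation under 0.5 was found for 8 genes, among them RPL12, RPL21, RPL3, RPL4, RPS26 and CB168716, which are described with their values further on. The SD of a member over the 12 arrays had a median of 0.25, against 0.31 for all kept probes.

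**Figure D2:**
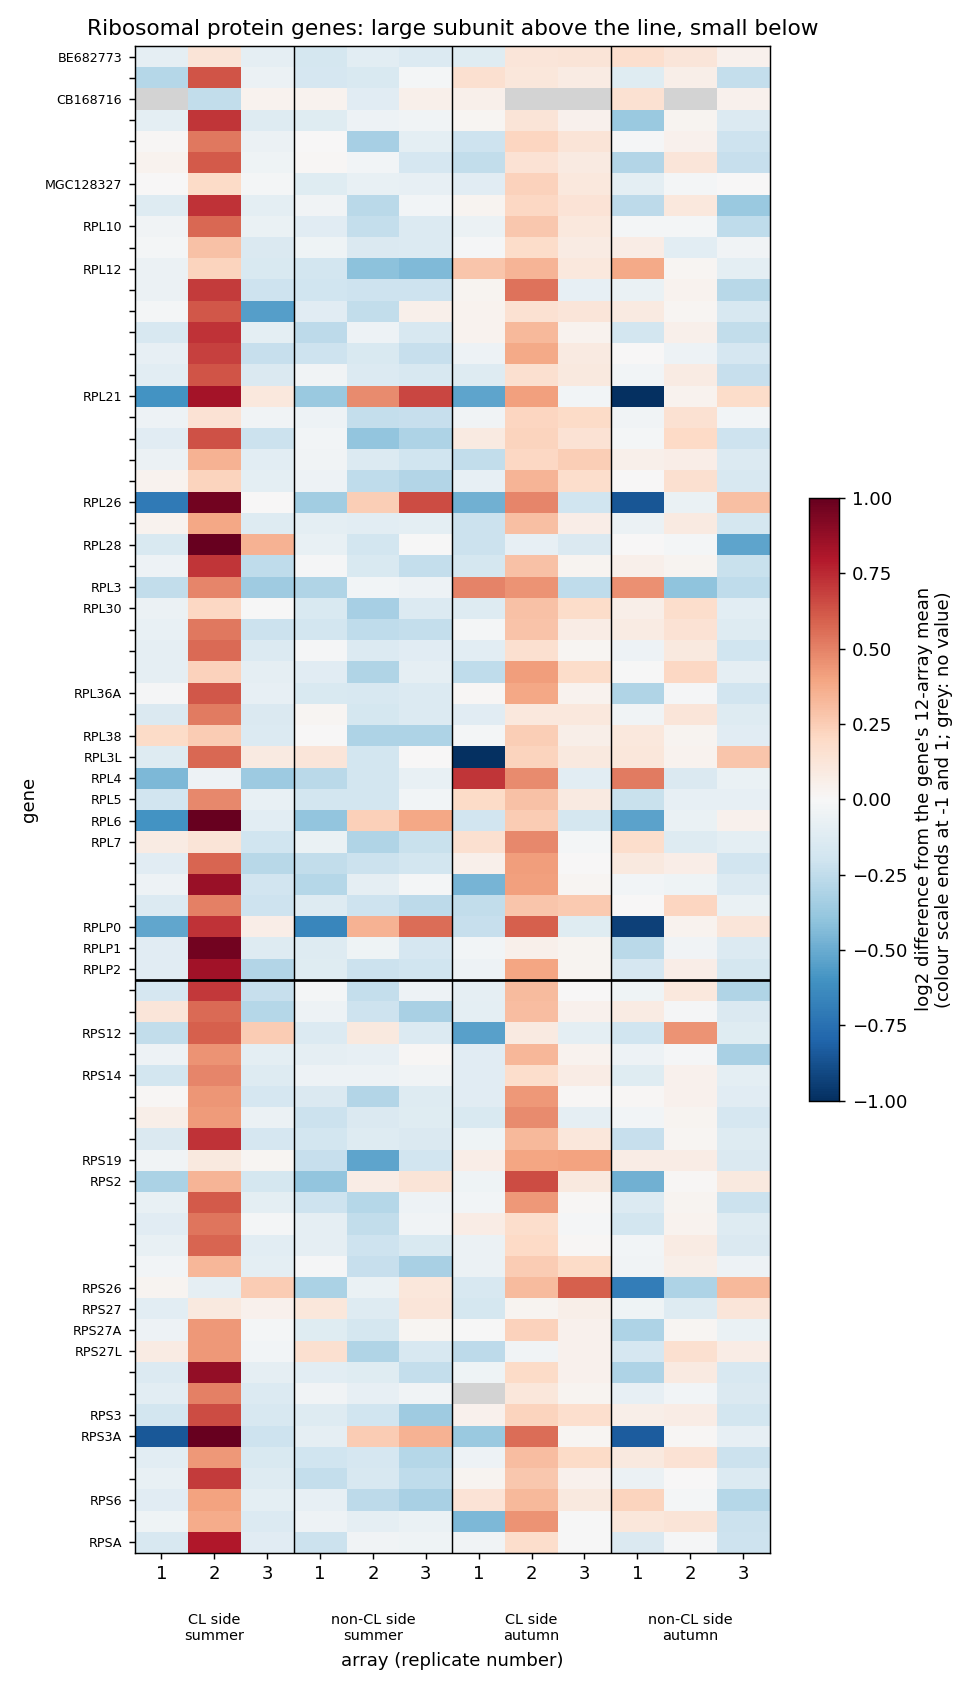
Heat map of the 71 ribosomal protein genes (rows, large subunit above the black line and small subunit below, labelled for the members chosen by the naming rule) on the 12 arrays (columns, by group and replicate number). Colour is the log2 difference from the gene's 12-array mean, with red above and blue below, and grey marks missing values. The column of CL-side summer replicate 2 is red for 68 genes, as is that of CL-side autumn replicate 2 for 68 genes, and the column of non-CL-side summer replicate 2 for 7.

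The first comparison set the CL-side horn against the opposite horn in summer, the side nearer the progesterone source against the side farther from it. Members stood higher on the CL side, by a median of 0.25 on the log2 scale, a 1.19-fold level, beside −0.01 over all probes. The difference was above 0 for 65 of 71 genes, compared with 48.9% of all probes. The medians were 0.24 for the large subunit and 0.27 for the small one. No gene passed the threshold of 0.05 on limma's adjusted p (0% of 12389 probes), and 1 member and 1.41% of probes had an unadjusted p under 0.05. The 3 CL-side values all lay above the 3 non-CL-side values for 12 of 70 genes and all below for none, compared with 1.88% and 1.65% of all probes.

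RPS19, a small subunit protein mutated in Diamond-Blackfan anaemia, had the smallest p of the members in this comparison. Its values were 3.74, 3.87 and 3.79 on the CL side in summer and 3.54, 3.25 and 3.58 on the non-CL side. The groups did not overlap, with a difference of 0.34 ± 0.15 (SE; limma adjusted p = 0.984). RPL12, which lies at the base of the stalk where elongation factors bind, had values of 5.08, 5.36 and 4.98 and 4.96, 4.73 and 4.70 in the same order, again with no overlap and a difference of 0.35 ± 0.17. For both genes CL-side replicate 2 was the highest array of its group and all CL-side arrays lay above the non-CL-side ones. RPL38, a small protein of the large subunit, had a difference of 0.31 ± 0.16, with values of 5.79, 5.85 and 5.46 against 5.60, 5.28 and 5.29 and overlapping groups. RPL28, at −4.94, −3.74 and −4.44 against −4.86, −4.97 and −4.79, had the largest difference of all members, 0.50 ± 0.27, most of it from replicate 2. At the other end, RPL21 (−0.14 ± 0.46), RPL4 (−0.11 ± 0.24), RPS3A (−0.11 ± 0.47) and CB168716 (−0.10 ± 0.18, 5 arrays measured in these groups) had values below 0, all smaller than their errors.

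The summer difference between the horns rested on the arrays numbered 2. Same-numbered horns of a season deviated together, with correlations of 0.50, 0.40 and 0.27 in summer and 0.29, 0.14 and 0.38 in autumn. Same-numbered arrays of a side also deviated together across seasons, with correlations of 0.24, 0.11 and 0.20 on the CL side and 0.30, 0.16 and 0.35 on the non-CL side. Same-numbered arrays that differed in both horn and season correlated at 0.09 to 0.32, so the link was not particular to the horns of a season. Arrays of different numbers were not compared in this way. What the numbers stand for is not stated in the labels, and pairing by number is therefore an assumption. By number, the median CL-side minus non-CL-side difference in summer was 0.02, 0.71 and 0.01. The CL side was higher for 42 of 70 genes, 69 of 71 and 37 of 71, compared with 47.2%, 49.4% and 49.4% of all probes. Without CL-side summer replicate 2 the median was 0.04 with 43 of 71 genes above 0, and 12 of 70 genes did not overlap with the CL side higher and 4 with it lower, beside 3.54% and 3.82% of all probes. With CL-side summer replicate 3 left out instead, 28 of 70 genes did not overlap with the CL side higher (8.7% of all probes), and without non-CL-side summer replicate 1 the count was 24 of 70 (6.85%). After quantile normalization the summer median was 0.06, with 50 of 71 genes above 0, and after cyclic loess it was 0.17, with 64 of 71.

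**Figure D3:**
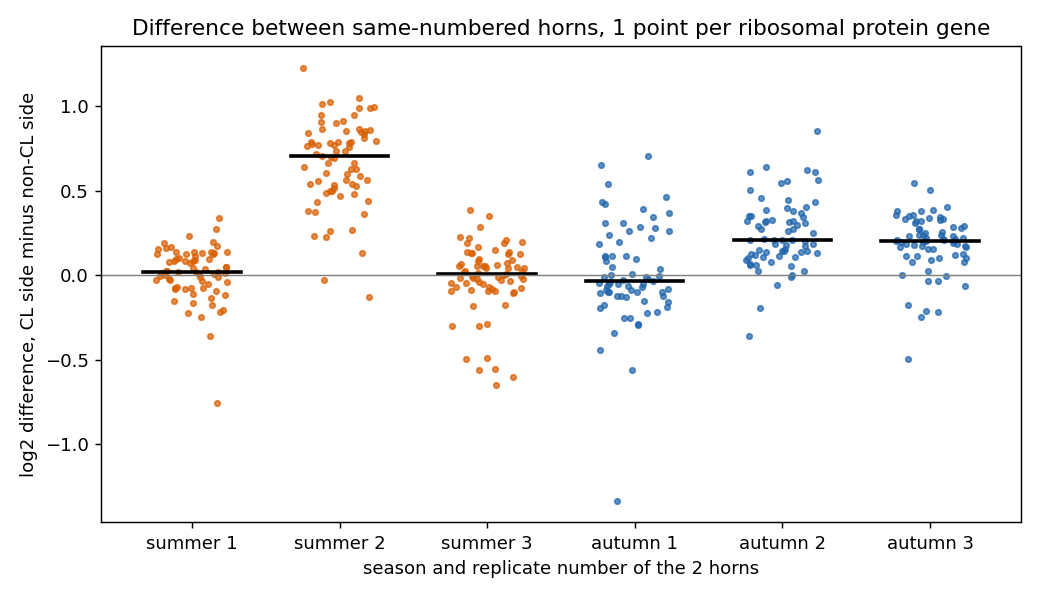
Log2 difference between same-numbered horns, CL side minus non-CL side (vertical axis), for each season and replicate number (horizontal axis). Each point is 1 of the 70 or 71 measured ribosomal protein genes and the black bars are medians, 0.02, 0.71 and 0.01 in summer and −0.04, 0.21 and 0.20 in autumn.

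In autumn the same comparison gave a smaller difference that was shared by more than 1 pair. The median log2 difference was 0.14 (1.11-fold), beside −0.04 over all probes, and 64 of 71 genes were above 0, compared with 42.6% of all probes. The medians were 0.14 for the large and 0.16 for the small subunit. No member or other probe passed the threshold (0% of 12378 probes), and no member but 1.86% of probes had an unadjusted p under 0.05. The groups did not overlap for 5 of 69 genes with the CL side higher and for none with it lower, compared with 2.35% and 5.55% of all probes. With 1 array fewer, overlap is rarer for any probe, and the count was 31 of 70 without CL-side autumn replicate 1 (7.29% of all probes), 16 of 69 without non-CL-side autumn replicate 2 (5.22%), 12 of 69 without non-CL-side autumn replicate 1 (8.7%) and 5 or 6 otherwise, with at most 1 gene lower. By number the medians were −0.04, 0.21 and 0.20, beside −0.06, −0.04 and −0.02 over all probes. The CL side was higher for 28, 66 and 61 of 70 genes each, compared with 41%, 45.2% and 46% of all probes. Members of the pair numbered 1, the only autumn pair on slide 1, thus lay near all probes. Without CL-side autumn replicate 2 the median was 0.06 with 53 of 71 genes above 0, without CL-side autumn replicate 1 it was 0.23, and after quantile normalization it was 0.05 with 49 of 71.

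RPL5, which carries the 5S ribosomal RNA into the large subunit and also binds MDM2, the p53 ubiquitin ligase, was one of the 5 genes without overlap. Its autumn values were 6.0, 6.10 and 5.90 on the CL side and 5.58, 5.72 and 5.72 on the non-CL side, a difference of 0.32 ± 0.18 (limma adjusted p = 1). Others without overlap, named after their values were seen, included RPL36A (0.31 ± 0.20), BP110625, described as similar to L4 (0.22 ± 0.21), and RPLP1 (0.17 ± 0.25). RPS19 again had one of the smallest p-values, at 3.84, 4.16 and 4.18 against 3.85, 3.85 and 3.63, with groups that overlapped slightly and a difference of 0.29 ± 0.15. RPS26, a small subunit protein near the mRNA exit channel, had the largest autumn difference, 0.48 ± 0.27, with groups that overlapped, at 2.67, 3.14 and 3.42 against 2.13, 2.52 and 3.15. RPL3L, a muscle form of RPL3, had the lowest, −0.44 ± 0.34, through a single value of −6.77 on CL-side autumn replicate 1, near the floor of −7.28, whereas its other 11 values lay between −5.74 and −4.98. In the authors' deposited values its autumn difference was 0.32. RPS12 (−0.23 ± 0.26), RPS27L (−0.11 ± 0.18) and BE682773, described as L34-similar (−0.07 ± 0.13), were the other members below 0 with the smallest p.

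The season comparison on the CL side asked whether the endometrium of summer differs from that of autumn. Members showed no common direction, with a median summer minus autumn difference of 0.01, beside 0.02 over all probes. The difference was above 0 for 40 of 71 genes, compared with 53% of all probes. No member or other probe passed the threshold (0% of 12381 probes). An unadjusted p under 0.05 was found for 1 member (1.41%), below the 9.92% of all probes. The 3 summer values never all lay on 1 side of the 3 autumn values for any of 69 genes, compared with 7.97% of all probes with summer higher and 5.02% with summer lower. The median changed sign with the setting. It was −0.09 after quantile normalization, −0.04 after cyclic loess, −0.01 with scaling to the median, 0.11 with slide as a block, 0.18 on slide 1 alone and 0.10 without CL-side autumn replicate 2. Without CL-side summer replicate 2 it was −0.19, and then 33 of 69 genes were lower in summer without overlap and none higher, beside 8.57% and 12.5% of all probes. By number the medians were −0.04, 0.28 and −0.19, with 28 of 69, 57 of 70 and 7 of 70 genes higher in summer, compared with 52.4%, 52.9% and 54.2% of all probes. CL-side autumn replicate 1, the only autumn array of that side on slide 1, lay at a score of −0.09, near the −0.12 and −0.11 of the other CL-side summer arrays.

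RPL4, a large subunit protein lining the peptide exit tunnel, was the member with the smallest p. Its values were 3.23, 3.63 and 3.31 in summer and 4.40, 4.15 and 3.58 in autumn on the CL side. The lowest autumn value lay just under the highest summer one, and the difference was −0.65 ± 0.24 (limma adjusted p = 0.496). On the non-CL side RPL4 had 3.41, 3.50 and 3.61 and 4.20, 3.54 and 3.61, with the high autumn value again on replicate 1. BP110625, described as similar to L4, did not show this CL-side difference, at −0.02 ± 0.21. Its CL-side values were 4.24, 5.16 and 4.47 in summer and 4.69, 4.65 and 4.61 in autumn. RPS19 (−0.26 ± 0.15), RPL12 (−0.24 ± 0.17) and RPL7 (−0.20 ± 0.17) also had values below 0. RPL28 (0.56 ± 0.27), RPS12 (0.38 ± 0.26), RPL3L (0.48 ± 0.34) and RPS27L, a p53-induced relative of RPS27 (0.25 ± 0.18), stood at the upper end. The difference of RPL3L was −0.16 in the authors' deposited values.

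On the non-CL side members lay slightly lower in summer. The median difference was −0.08 (0.94-fold), beside −0.00008 over all probes, and 19 of 71 genes were above 0, compared with 49.9% of all probes. No member or other probe passed the threshold (0% of 12383 probes), and 1 member and 1.12% of probes had an unadjusted p under 0.05. The summer values all lay below the autumn values for 10 of 70 genes and above for none, compared with 3.45% and 2.62% of all probes. Without non-CL-side autumn replicate 3 the counts were 28 below and 0 above, beside 10.4% and 9.54% of all probes. They were 23 and 4 without non-CL-side summer replicate 1 (11.4% and 13.8%) and 12 and 4 without non-CL-side autumn replicate 2 (6.27% and 5.66%). Among the 10 genes, named after their values were seen, were RPL12, RPS19, BE682773, RPL30, RPL31, RPL9, RPL22, RPL35A and RPS15A. Season is partly tied to slide, and with slide as a block the median was 0.02, while on slide 1 alone, with 1 autumn array, it was −0.10. By number the medians were −0.05, −0.21 and 0.003, with 29 of 71, 8 of 70 and 36 of 71 genes higher in summer, compared with 44%, 53.7% and 50.8% of all probes. Quantile normalization and cyclic loess gave −0.10 and −0.06.

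RPL12 had the largest of these differences, at 4.96, 4.73 and 4.70 in summer and 5.51, 5.16 and 5.04 in autumn, −0.44 ± 0.17 (limma adjusted p = 1). RPS19 followed with −0.32 ± 0.15. RPL30, which also takes part in selenocysteine insertion, had −0.25 ± 0.15. At 4.67, 4.50 and 4.69 against 4.89, 5.0 and 4.72, the RPL30 groups were separated by less than the spread within each. The members with the smallest p above 0 were RPL21 (0.58 ± 0.46), RPS3A (0.47 ± 0.47), RPL26 (0.39 ± 0.46) and RPLP0 (0.35 ± 0.43). All were of low signal, and whether their probes read these mRNAs was not checked. A brighter RPLP0 probe outside the rule, described further on, had the other sign, −0.27 ± 0.25.

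The change with season was also compared between the horns, as the CL-side difference minus the non-CL-side one. The median was 0.11, beside 0.03 over all probes, and 53 of 71 genes were above 0, compared with 53.9% of all probes. No member or other probe passed the threshold (0% of 12375 probes), and no member but 1.88% of probes had an unadjusted p under 0.05. The sign rested on CL-side summer replicate 2, without which the median was −0.10, and it was −0.01 after quantile normalization. RPL3L (0.64 ± 0.48), RPS12 (0.49 ± 0.36), RPL28 (0.47 ± 0.38) and RPS27L (0.37 ± 0.26) stood highest, and RPS3A (−0.48 ± 0.66), RPL4 (−0.37 ± 0.34), RPS2 (−0.34 ± 0.36) and RPS26 (−0.33 ± 0.38) lowest among those with the smallest p.

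By role, the acidic stalk proteins, which recruit elongation factors to the large subunit, stood high on CL-side summer replicate 2. RPLP1 stood at 4.81, 5.89 and 4.79 in CL-side summer, 4.79, 4.87 and 4.75 in non-CL-side summer, 4.89, 4.97 and 4.95 in CL-side autumn and 4.65, 4.88 and 4.78 in non-CL-side autumn. All but the 5.89 of CL-side summer replicate 2 lay between 4.65 and 4.97. Its partner RPLP2 had 6.25, 7.20 and 6.07, 6.24, 6.15 and 6.16, 6.31, 6.75 and 6.38 and 6.19, 6.42 and 6.19 in the same order of groups. RPLP2 followed the other members most closely of the stalk genes, with a correlation of 0.98. The horn differences were 0.36 ± 0.25 and 0.32 ± 0.26 in summer, and −0.003 and −0.02 without CL-side summer replicate 2.

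RPL3, RPL4, RPL10 and RPL5 belong to the core of the large subunit around the peptidyl transferase centre and the 5S RNA. RPL10, which is added last and is needed for the subunits to join, followed the common pattern with a correlation of 0.95. Its values were 5.83, 6.45 and 5.80 in CL-side summer and 5.75, 5.63 and 5.73 in non-CL-side summer, without overlap, and its horn differences were 0.32 ± 0.19 in summer and 0.20 ± 0.19 in autumn. RPL3, the protein nearest the catalytic centre, did not follow it as closely (0.48). It was high on CL-side summer replicate 2 (2.0), on both autumn arrays numbered 1 (2.01 and 1.97) and on CL-side autumn replicate 2 (1.96), whereas its other 8 values were 1.11 to 1.48. RPL4 had the same high autumn arrays, at 4.40, 4.15 and 4.20, and its correlation with the other members was 0.16. For BP110625, described as similar to L4, that correlation was 0.87.

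Among small subunit proteins, RPS3, RPS6, RPS14, RPSA and RPS27A followed the common pattern with correlations of 0.90, 0.75, 0.96, 0.93 and 0.89. RPS6, the substrate of S6 kinase, had values of 5.58, 6.10 and 5.59 in CL-side summer and 5.61, 5.43 and 5.37 in non-CL-side summer, a difference of 0.29 ± 0.19, and 0.21 ± 0.19 in autumn. RPSA, which is also known as the laminin receptor precursor, had 5.57, 6.54 and 5.62 and 5.52, 5.69 and 5.69, a difference of 0.27 ± 0.23. Only the second of the CL-side values lay above the non-CL-side ones. RPS27A, made as a fusion with ubiquitin, had differences of 0.21 ± 0.17 and 0.21 ± 0.17. RPS3, which lines the channel where mRNA enters, had differences of 0.33 ± 0.21 and 0.16 ± 0.21. RPS14, often used as a reference gene, had horn differences of 0.10 ± 0.18 and 0.10 ± 0.18, with 10 of 12 values between 7.05 and 7.32, 1 of 7.41 and 1 of 7.73. Its spot was saturated on 2 of these arrays, CL-side autumn replicates 1 and 2 (7.13 and 7.41), which limits how high a value can be read. The 7.73 of CL-side summer replicate 2 was not among them. With the saturated values missing the differences were 0.10 and 0.13, the autumn one resting on CL-side replicate 3 alone. After quantile normalization the RPS14 differences were −0.09 and −0.05. The steadiest members over the 12 arrays were RPS27 (SD 0.11), MGC128327 (0.12) and CB168716 (0.12), the last of which correlated at −0.77 with the others over its 8 arrays.

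A set of 5 members of low signal had the largest spread and a pattern that differed from that of most other members. These were RPL21, RPS3A, RPL26, RPLP0 and RPL6, with SDs over the arrays of 0.58, 0.58, 0.55, 0.52 and 0.48. Their probes are printed because these spots correlated at 0.87 or more with each other, yet at a median of only 0.34 to 0.61 with the 61 members above the 75th percentile. No part is marked. Which strand of each transcript these probes read was not checked here. Their values may therefore not be those of the mRNAs named.
RPL21 probe: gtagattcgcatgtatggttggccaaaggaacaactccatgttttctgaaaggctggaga
RPS3A probe: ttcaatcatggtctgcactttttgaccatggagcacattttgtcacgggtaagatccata
RPL26 probe: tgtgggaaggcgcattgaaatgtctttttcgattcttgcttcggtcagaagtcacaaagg
RPLP0 probe: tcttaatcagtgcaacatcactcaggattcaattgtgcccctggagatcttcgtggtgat
RPL6 probe: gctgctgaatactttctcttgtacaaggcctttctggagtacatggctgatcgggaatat
RPL21, a large subunit protein, had values of −3.23, −1.80 and −2.53 in CL-side summer, −3.01, −2.16 and −1.97 in non-CL-side summer, −3.17, −2.23 and −2.66 in CL-side autumn and −3.82, −2.60 and −2.45 in non-CL-side autumn. The array numbered 1 was the lowest of its group in all 4 groups. The same held for RPS3A, at −5.25, −4.50, −4.78 and −5.24 on those arrays, and for RPLP0, at −4.38, −4.51, −4.09 and −4.80. It also held outside the members, for EEF1G at −4.76, −4.92, −4.42 and −4.86 and for the brighter PABPC1 at 4.26, 4.10, 4.17 and 3.90. How many other probes share this trait was not counted. All 5 genes shared the high value on CL-side summer replicate 2 with the other members, but not the low values of non-CL-side summer replicates 2 and 3. Their values lay far below the 75th percentile, where a log2 difference rests on little signal. Without these and the other 5 genes below that percentile, the member medians were 0.26 for the horns in summer and 0.15 in autumn.

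**Figure D4:**
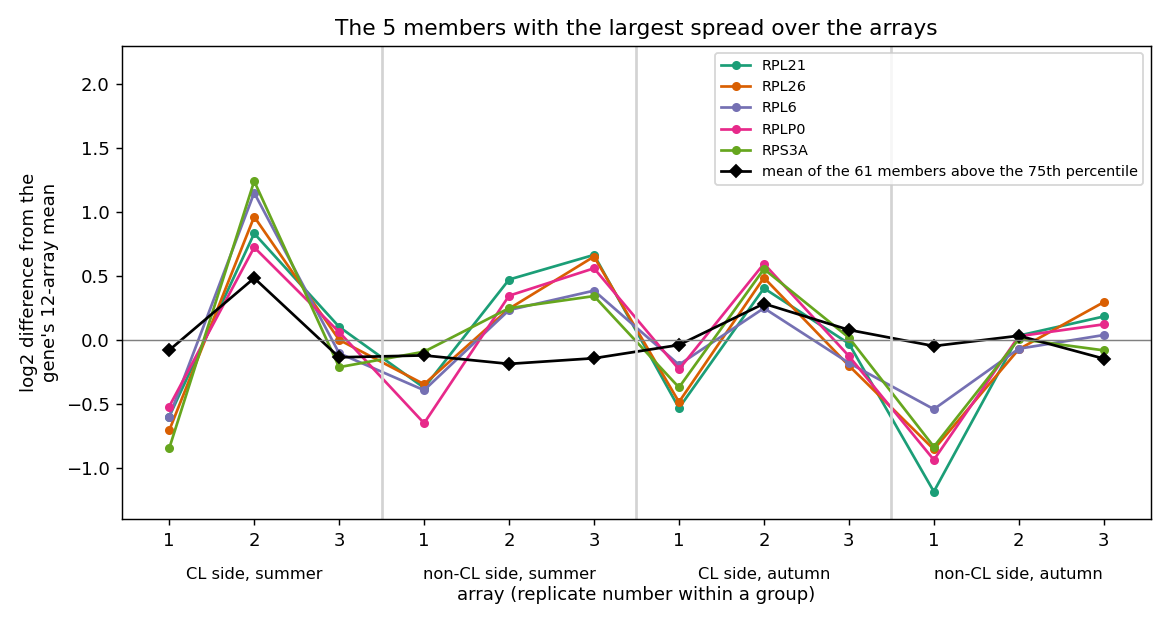
Log2 difference from the gene's 12-array mean (vertical axis) of the 5 members with the largest spread and of the mean over the 61 members above the 75th percentile (black) on the 12 arrays (horizontal axis, by group and replicate number). The 5 genes fall on the array numbered 1 of every group and join the black line at its peak on CL-side summer replicate 2. RPL21 is lowest on non-CL-side autumn replicate 1, where its level before the mean is subtracted was −3.82.

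Probes for 4 cytosolic ribosomal protein genes lay outside the wording of the rule, because the files call them ARBP (RPLP0), ORF protein (RPL27A), RPL13-like and S15-like, and they had not entered the counts. Their horn differences in summer were 0.25 ± 0.25 for RPLP0, 0.18 ± 0.21 for RPL27A, 0.37 ± 0.36 for RPL13 and 0.41 ± 0.15 for RPS15. In autumn they were 0.22 ± 0.25, 0.10 ± 0.21, 0.07 ± 0.36 and 0.23 ± 0.15 in the same order. All 8 were above 0 and none passed the threshold. RPL13 lay close to the floor. This second RPLP0 probe correlated with the member score at 0.69, and its highest values, −0.27 and −0.28, were on the CL-side arrays numbered 2.

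Among other genes of translation, the elongation factors and further 5′ TOP transcripts varied like the ribosomal proteins. Of 17 measured genes of this list, 15 had a higher mean on the CL side in summer and 15 in autumn, with medians of 0.19 and 0.15, and none passed the threshold. The list score was 0.35 on CL-side summer replicate 2 and 0.29 on CL-side autumn replicate 2, and −0.17 to 0.10 on the other arrays. EEF1A1, which brings aminoacyl-tRNA to the ribosome, had differences of 0.30 ± 0.21 and 0.17 ± 0.21, EEF1B2, its exchange factor, 0.28 ± 0.17 and 0.29 ± 0.17, and BTF3, which binds nascent chains, 0.36 ± 0.16 and 0.18 ± 0.16. RACK1, a scaffold protein on the small subunit, had 0.20 ± 0.17 and 0.31 ± 0.17. VIM, an intermediate filament gene that is also one of the stroma markers, had −0.05 ± 0.22 and 0.57 ± 0.22.

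Other lists did not share the pattern to that extent. The 21 measured initiation and release factors had medians of −0.05 and 0.02 for the horns in summer and autumn, with 8 and 13 genes above 0, and a score of −0.11 on CL-side summer replicate 2. The 33 ribosome assembly and rRNA processing genes had medians of 0.06 and −0.03, with 23 and 14 above 0, and a score of 0.27 on CL-side summer replicate 2 but 0.03 on CL-side autumn replicate 2. The 45 mitochondrial ribosomal proteins, which serve the separate ribosome of mitochondria, had medians of 0.06 and −0.05, with 29 and 18 above 0, and scores of −0.01 and 0.02 on those arrays. None of these genes passed the threshold in either comparison.

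Lists of upstream controls and of other genes linked to the ribosome showed few large values. The 13 genes of RNA polymerase I and III had medians of 0.01 and −0.05 for the horns in summer and autumn, the 11 genes of mTOR, S6 kinase and MYC control −0.07 and 0.07, the 8 signal recognition and translocon genes 0.06 and −0.05, and the 5 genes of the p53 response to free ribosomal proteins −0.18 and −0.07. MYC, which drives ribosome synthesis, had a CL-side minus non-CL-side difference of 0.64 ± 0.33 (SE) in summer. For season on the CL side, PIK3R1, a regulatory subunit of PI3-kinase, had −1.06 ± 0.31, AKT1, a kinase upstream of mTOR, −0.98 ± 0.39, and BAX, a p53 target that promotes cell death, 0.73 ± 0.20. BAX also had 0.68 ± 0.20 on the non-CL side. None of these lists held a gene past the threshold in any of the comparisons, and limma's adjusted p was 0.496 or 1 for the season values given here.

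**Figure D5:**
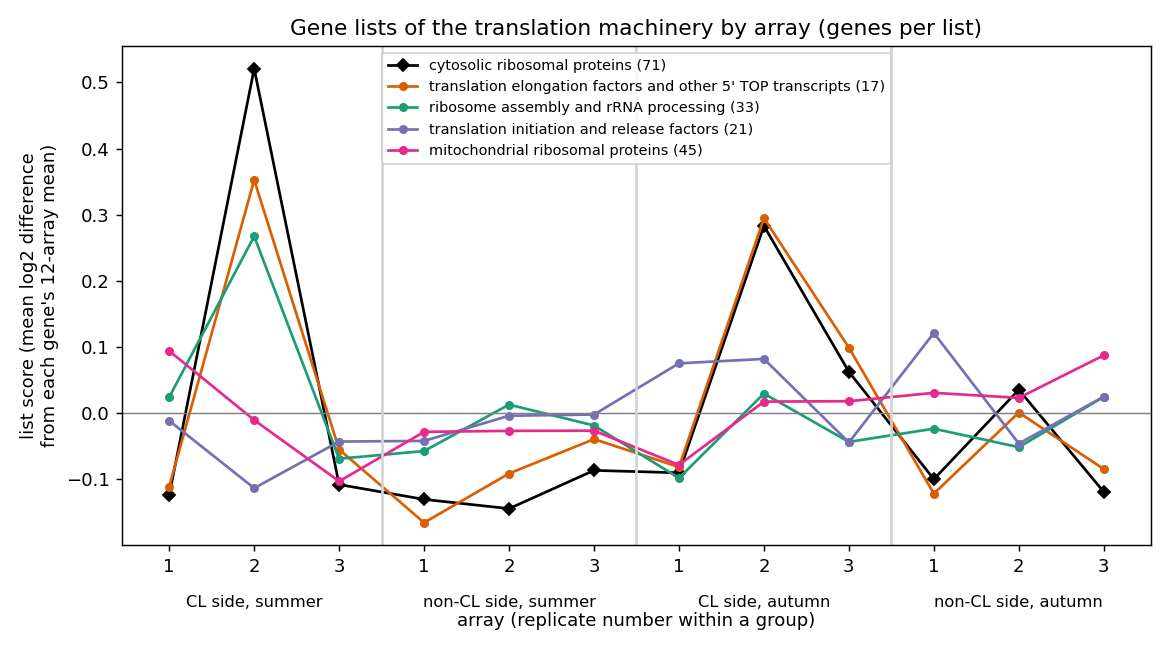
Scores of 5 gene lists (vertical axis, mean log2 difference from each gene's 12-array mean) on the 12 arrays (horizontal axis, by group and replicate number), with the number of measured genes in the legend. The cytosolic ribosomal proteins reach 0.52 and 0.28 on the CL-side arrays numbered 2 and the elongation factor and TOP list 0.35 and 0.29, whereas the mitochondrial ribosomal proteins stay between −0.10 and 0.09 throughout.

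Among the 4898 named genes compared, the ones whose pattern was most like the member score over the 12 arrays were UQCRQ (r = 0.98), a subunit of respiratory complex III, the complement factor properdin gene CFP (0.95), CDC37 (0.95), a co-chaperone of HSP90, EEF1A1 (0.94) and NDUFB10 (0.94), a subunit of respiratory complex I. Without CL-side summer replicate 2 these correlations were 0.96, 0.87, 0.90, 0.88 and 0.90. The order then changed, and the 5 most alike over 11 arrays, named after their values were seen, were UQCRQ, FABP7 (0.94), EIF3E (0.93), LDHB (0.93) and UBTD1 (0.91), of which FABP7 and LDHB stood at −0.36 and −0.05 over all 12 arrays. Each correlation shares the same libraries and scaling and is a description.

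Several cell type marker lists went opposite ways on the 2 arrays with the highest member scores. The epithelium list (9 of 12 genes measured) had scores of −0.16 to 1.37 in CL-side summer, −0.47 to 0.15 in non-CL-side summer, −0.34 to −0.20 in CL-side autumn and −0.31 to 0.11 in non-CL-side autumn. The stroma list (11 of 12 measured) had −1.24 to 0.19, −0.24 to 0.15, 0.26 to 0.85 and −0.17 to −0.07. CL-side summer replicate 2 was the highest in epithelium and the lowest in stroma, at 1.37 and −1.24, whereas CL-side autumn replicate 2 was at −0.27 and 0.85. Dividing cell markers (6 of 12 measured) were at −1.06 and 1.51 on these arrays, granulocyte markers (4 of 7) at 2.76 and −0.09, T and NK cell markers (10 of 10) at 0.83 and −0.25 and squamous epithelium markers (5 of 9) at 1.93 and −0.88. B and plasma cell markers (3 of 6) were above 0 on both, at 0.92 and 0.29. The remaining arrays had granulocyte scores between −1.64 and 1.30 and dividing cell scores between −0.29 and 0.77. Probe base composition was close to that of other probes, with a median GC content of 45.0% for members and 43.3% for all kept probes. The part of cell composition in the member scores was not tested.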

How the data were processed

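Endometrial RNA was hybridised to 12 1-colour arrays, 3 per group, with group and replicate number read from each sample's title. Spot signals were extracted with Feature Extraction, version 9.5.1.1 per the file headers and 9.5 per the submitters' processing notes. The deposited processed signal is a spot intensity with the background subtracted and no scaling between arrays, per the file headers. A log2 value table deposited by the authors, of unstated scale and centring, served as an alternative. It correlated with the scanner values at 0.970 to 0.995 in the same direction, had column medians of −2.79 to −2.61 and lay near 0 at the 75th percentile.

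Each processed signal was divided by its array's 75th percentile over non-control probes, raised to a floor of −7.28 on the log2 scale where lower (2.06% of kept values) and log2-transformed. Outlier flags set 466 values to missing. The filter kept 12404 of the 15208 probes, those well above background on every array of 1 or more groups. All kept probes entered 1 limma fit (limma 3.58.1, R 4.3.3) of 4 group means over 12 arrays with 8 residual degrees of freedom. Tests were two-sided, with Benjamini-Hochberg adjustment over all kept probes at 0.05, and errors are SE unless named as SD. The script was tested on simulated data. Precision is limited by the number of arrays. Symbols came from the array files and the RefSeq gene table (ARS-UCD2.0), used for names alone, and no coordinates are printed. Probe sequences are those of the deposited files.

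Members and lists were chosen with earlier results of these data known, so no list or score was tested. Named were, per comparison, up to 4 members per direction with the smallest unadjusted p, the 5 with the largest and the 3 with the smallest SD, members of fixed roles and the 5 genes most like the member score. Of genes in other lists, some of the 2 per list and comparison with the smallest p are given. Results for some genes are not reported here. Same-numbered horns of a season deviated together (all 6 correlations over 0.1), as did same-numbered seasons of a side (all 6 over 0.1). Same-numbered arrays that differed in both correlated at 0.09 to 0.32. For the differences by number and the replicate blocks, the numbers were taken to pair the samples in both kinds of comparison. These values cannot show that pairing, and the main limma fit did not use it. Alternatives were the background correction, the scaling, the source of the values, the filter, saturated spots, the probe and member rules, replicate and slide blocks, arrays left out and the groups in the fit.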

Additional observations from a re-analysis of the deposited data

How the results depend on the processing

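No member passed the threshold under any alternative in any comparison (127 counts, at most 7 of all kept probes). This includes the replicate block for the pairing of the horns and that across seasons, with 0 members in each comparison, which changed no other call. Of the 127 medians under alternatives, 2 moved by more than the SD between array scores within groups (0.211), both for the horns in summer. That median was 0.0419 without CL-side summer replicate 2 and 0.0419 without both CL-side replicates 2, a setting chosen after seeing the data, as were the probes as filed and the members above the 75th percentile. Leaving out 1 array at a time gave medians of 0.0419 to 0.361 (horns in summer), 0.0573 to 0.226 (horns in autumn), −0.190 to 0.130 (season, CL side), −0.138 to −0.0294 (season, non-CL side) and −0.0982 to 0.214 (change with season between horns). The score of CL-side summer replicate 2 was 0.0624 after quantile normalization. Of 1571 named gene values under alternatives, 39 had the other sign, for 21 of 64 gene results, none past the threshold. Quantile normalization gave −0.00810 for RPS27A, −0.0222 for RPL5 and −0.0913 for RPS14 in summer and −0.0532 for RPS14 in autumn, and cyclic loess −0.0387 for RPS14 in summer (horn differences, as are the next). RPS3A in summer was 0.0609 with normexp and 0.00822 in the authors' values, where RPL3L was 0.317 for the horns in autumn, −0.156 for season on the CL side and −0.0350 for the change between horns. On slide 1 alone the autumn values were −0.00637 for RPS19, −0.0856 for RPS6, −0.0428 for RPL10 and −0.0108 for RPS3. Without both CL-side replicates 2, the summer values were 0.0428 for CB168716, −0.314 for RPLP0, −0.00298 for RPLP1, −0.0247 for RPLP2, −0.0414 for RPSA, −0.00233 for RPL5, −0.175 for RPL3, −0.111 for RPS14 and −0.000935 for RPL3L. Leaving out 1 array at a time gave summer ranges of −0.235 to 0.0428 for CB168716, −0.503 to 0.213 for RPL21, −0.696 to 0.348 for RPS3A, −0.364 to 0.308 for RPLP0, −0.00298 to 0.544 for RPLP1, −0.0247 to 0.540 for RPLP2, −0.0414 to 0.441 for RPSA, −0.00233 to 0.332 for RPL5, −0.175 to 0.248 for RPL3, −0.111 to 0.227 for RPS14 and −0.000935 to 0.352 for RPL3L, and autumn ranges of −0.703 to 0.0170 for RPL3L and −0.109 to 0.0166 for BE682773. The cause of these shifts was not tested. Arrays are few, and signals below the 75th percentile, as for RPL3L and RPS3A, gave the widest ranges.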
